A study of Mus musculus with 10 samples.

Results

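The chromatin of 5 genes for endoderm transcription factors, Gata6, Gata4, Foxa2, Sox17 and Sox7, was followed as mouse embryonic stem (ES) cells differentiated. The genes were chosen by name, with earlier results of these data known. Each is represented by a window of the mouse genome in build mm9. The windows are chr18:11048001-11088000 for Gata6 (40 kb), chr14:63815001-63870000 for Gata4 (55 kb), chr2:147864001-147876000 for Foxa2 (12 kb), chr1:4478001-4492000 for Sox17 (14 kb) and chr14:64558001-64572000 for Sox7 (14 kb). They hold 67 whole bins of 2 kb, of 1164024 autosomal bins with a read in at least 1 library. No mm9 gene annotation was used here, so start sites, exons and introns were not placed within the windows.

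The series holds 10 chromatin immunoprecipitation sequencing (ChIP-seq) libraries from the ES cell lines E14, LF2 and XT67E1, with 1 library for each line, state and histone mark. XT67E1 (strain C3H/Pgk*129) was profiled for H3K4me3 and H3K27me3 after 4 days with all-trans retinoic acid (atRA), as embryoid bodies (EBs) after 10 days without LIF, and undifferentiated. LF2 and E14 (both 129/Ola) were profiled for H3K27me3 as EBs after 10 days and undifferentiated. All lines had been kept on gelatin in serum with LIF, the cytokine that holds ES cells undifferentiated, and all chromatin was fixed with formaldehyde and sonicated. The H3K4me3 libraries held 2252395 reads each, the XT67E1 H3K27me3 libraries 8380007 and the LF2 and E14 libraries 4531733. Values are reads by interval midpoint, or RPM, reads per 1e6 autosomal reads. Intervals are exact 95% intervals and cover counting error only. With 1 library in each group, no comparison within a line has a replicate check. EBs and atRA cultures are mixed populations, and more marked cells cannot be told apart from more mark per cell.

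As background, H3K4me3 lies on active and poised promoters, and H3K27me3 is placed by Polycomb complexes on repressed genes. Many developmental genes of ES cells carry both marks, a state called bivalent. Gata6 and Gata4 are zinc finger factors, and Gata6 directs cells of the early embryo to primitive endoderm, the layer that lines the yolk sac. Foxa2 is a forkhead pioneer factor of definitive endoderm, the layer that forms gut, liver and pancreas, and of the midline. Sox17 and Sox7 are HMG box factors of the SoxF group. Sox17 acts in definitive and primitive endoderm, and Sox7 in primitive endoderm and in blood vessel precursors.

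Promoter sequence is shown for Foxa2, from the RefSeq promoter table of build GRCm38.p6, which gives 3 start sites on the minus strand of chromosome 2. Positions were not converted between the builds, so the match of these promoters to single mm9 bins is not given. The first is shown because it is the richest of the 3 in CpG, the dinucleotide dense at many promoters with both marks. Its 250 bases before the start hold 20 CpG (capitals), against a median of 6 over the 32851 promoters of the table, and 17.9% of those promoters hold as many.
Foxa2 promoter, chr2:148045949-148046198, minus strand: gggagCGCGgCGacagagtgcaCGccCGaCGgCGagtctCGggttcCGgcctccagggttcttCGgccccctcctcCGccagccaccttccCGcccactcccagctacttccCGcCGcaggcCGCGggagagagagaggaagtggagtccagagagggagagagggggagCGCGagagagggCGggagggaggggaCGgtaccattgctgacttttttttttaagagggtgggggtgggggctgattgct
The next is shown because it holds the only match of the 3 to a word for GATA factors, the family of Gata6 and Gata4. The word is AGATAA at base 68 (capitals).
Foxa2 promoter, chr2:148045465-148045714, minus strand: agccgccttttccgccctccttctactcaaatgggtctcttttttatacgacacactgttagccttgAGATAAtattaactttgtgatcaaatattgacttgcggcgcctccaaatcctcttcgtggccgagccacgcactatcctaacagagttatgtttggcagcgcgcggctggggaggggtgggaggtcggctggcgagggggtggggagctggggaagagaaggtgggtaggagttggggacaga
The words searched on both strands were AGATAA, or AGATAG, or TGATAA, or TGATAG, and 26.5% of all promoters hold at least 1 of them. The forkhead words TGTTTAC and TGTTTGC, held by 7.29% of promoters, had no match in the 3 Foxa2 promoters. The SOX words ACAAT and ACAAA, held by 56.1% of promoters, matched 1 time in each of 2 of them, this one included. The last promoter, chr2:148046970-148047219, held 6 CpG. These matches describe letters and do not show binding.

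Before differentiation, the 5 windows carried H3K27me3, and their H3K4me3 was near the mean level of the library. A bin was called rich in a mark at 4 times the mean autosomal bin of its library or more. In undifferentiated XT67E1 cells, 0 of the 67 bins were rich in H3K4me3, against 1.67% of all autosomal bins. With 67 bins this count is near that share and does not show a depletion. The H3K4me3 density of the windows was 0.729 (Gata6) to 1.31 (Sox17 and Sox7) times the autosomal mean. After atRA, 12 of the 67 bins were rich in H3K4me3 (1.44% of all autosomal bins): 3 at Gata6, 3 at Gata4 and 2 at each of Foxa2, Sox17 and Sox7. In EBs, 8 were rich (1.58% of all): 3 at Gata6, 2 at Gata4, 2 at Foxa2, 1 at Sox17 and 0 at Sox7. All 5 genes thus had H3K4me3-rich bins after atRA, and 4 had them in EBs.

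The strongest H3K4me3 bin of each window was taken by its reads summed over the 3 libraries, a choice that favours bins high after differentiation. At Gata6 this bin, chr18:11054001-11056000, held 35 reads after atRA and 20 in EBs, against 1 in undifferentiated cells. The ratio to undifferentiated cells was 35.0 after atRA (5.89 to 1423) and 20 in EBs (3.20 to 829). The neighbouring bins at -2 and -4 kb carried the mark as well, with 25 and 14 reads after atRA and 23 and 12 in EBs, against 1 and 2 in undifferentiated cells. Gata6 thus had a block of H3K4me3 over 3 bins in both differentiated libraries.

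At Gata4 the strongest bin, chr14:63862001-63864000, held 25 reads after atRA and 10 in EBs, against 4 in undifferentiated cells. It was 6.26 times as high after atRA (2.16 to 24.7) and 2.5 times in EBs (0.721 to 10.9), an interval that includes 1. Smaller signals flanked it, with 13 reads at 2 kb and 11 at -4 kb after atRA, 10 and 7 in EBs, and 3 and 1 in undifferentiated cells.

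At Foxa2 the strongest bin, chr2:147870001-147872000, held 30 reads after atRA and 13 in EBs, against 0 in undifferentiated cells. With the undifferentiated library set to a floor of 3 reads, this is at least 10.0-fold higher after atRA and at least 4.33-fold higher in EBs. With the counting error of both libraries, the exact 95% interval of the ratio begins at 7.65 after atRA and at 3.05 in EBs. Foxa2 also had a separate H3K4me3 bin at -6 kb, with 9 reads after atRA and 11 in EBs, against 2 in undifferentiated cells. The -6 kb bin is the only rich bin of the 5 windows in which the EB library held no fewer reads than the atRA library.

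At Sox17 the strongest bin, chr1:4482001-4484000, held 40 reads after atRA and 18 in EBs, against 7 in undifferentiated cells. It was 5.72 times as high after atRA (2.54 to 15.1) and 2.57 times in EBs (1.03 to 7.28). With 7 reads, just under the 8 reads that make a bin rich, it was the member bin closest to rich before differentiation. At Sox7 the strongest bin, chr14:64562001-64564000, held 21 reads after atRA and 5 in EBs, against 3 in undifferentiated cells. Sox7 was 7.01 times as high after atRA (2.09 to 36.7) and 1.67 times in EBs (0.324 to 10.7).

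**Figure D1:**
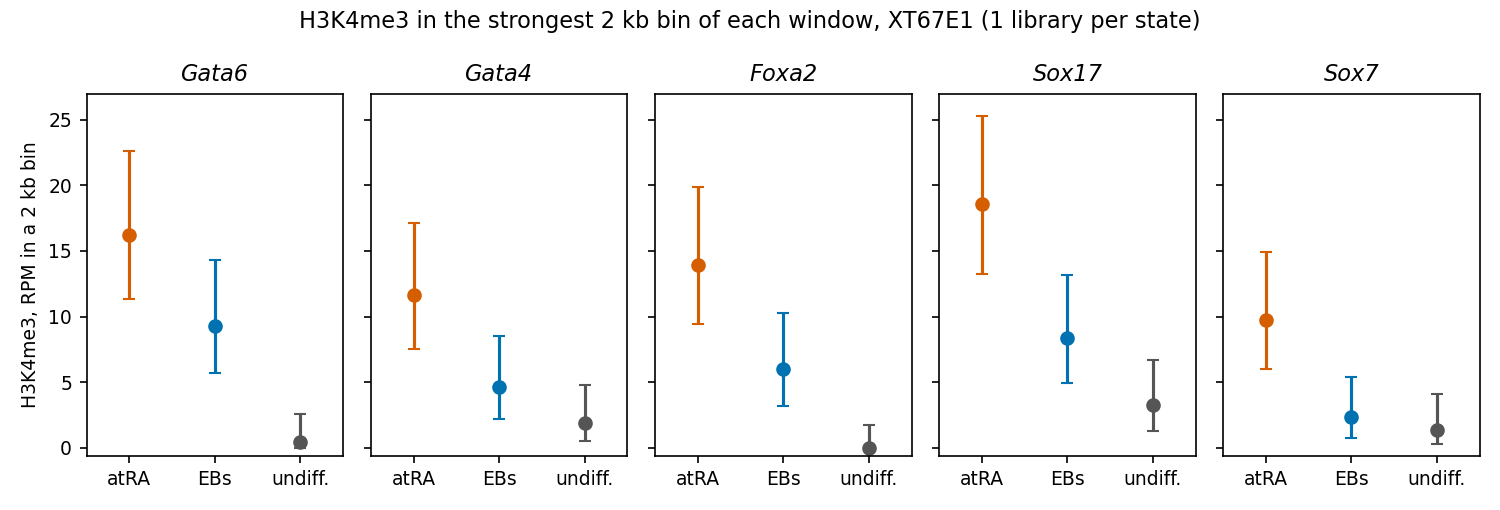
H3K4me3 in RPM in the strongest 2 kb bin of each window after atRA, in EBs and in undifferentiated XT67E1 cells, 1 library per point, with exact 95% Poisson intervals. After atRA the bins sit between 9.75 RPM (Sox7) and 18.6 RPM (Sox17), above EBs and undifferentiated cells at all 5 genes. The atRA and EB intervals overlap at Gata6, Gata4 and Foxa2, and the Gata6 ratio of atRA to EBs is 1.75 (0.984 to 3.20).

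By level after atRA, the order of these bins was Sox17 (18.6 RPM, 13.3 to 25.3), Gata6 (16.3, 11.3 to 22.6), Foxa2 (13.9, 9.40 to 19.9), Gata4 (11.6, 7.51 to 17.1) and Sox7 (9.75, 6.04 to 14.9). The intervals of neighbours in this order overlap. Each bin was in the upper 0.757% of autosomal bins of that library or higher. In EBs the Gata6 bin was the highest at 9.27 RPM (5.66 to 14.3) and the Sox7 bin the lowest at 2.32 RPM (0.753 to 5.41).

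Counts over whole windows do not depend on the choice of a bin. The windows summed to 349 H3K4me3 reads after atRA and 233 in EBs, against 123 in undifferentiated cells, a ratio of 2.84 after atRA (2.31 to 3.52) and of 1.89 in EBs (1.52 to 2.38). After atRA every window was higher, from 94 reads against 48 at Gata4 (1.96-fold, 1.37 to 2.84) to 68 against 17 at Sox17 (4.01-fold, 2.33 to 7.27). The Gata6 window held 92 reads against 27 (3.41-fold), Foxa2 52 against 14 (3.72-fold) and Sox7 43 against 17 (2.53-fold), with intervals above 1. In EBs the interval lay above 1 at Gata6, with 90 reads against 27 (3.33-fold, 2.15 to 5.33), and at Foxa2, with 36 against 14 (2.57-fold, 1.35 to 5.16). It included 1 at Gata4 (67 against 48, 0.949 to 2.07), Sox17 (29 against 17, 0.907 to 3.31) and Sox7 (11 against 17, 0.274 to 1.46).

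A bin was called at 2-fold or more with an interval that excludes 1, and bins were tested where the pair of libraries held 20 reads or more. After atRA, 6 of the 67 H3K4me3 bins had that many reads, and all 6 were called higher and 0 lower. Of all tested autosomal bins, 4.99% were called higher and 12.5% lower, with a median log2 ratio of -0.06. In EBs, 3 of the 67 bins had enough reads, and 3 were called higher and 0 lower, against 2.95% higher and 13.5% lower over all tested bins, with a median of -0.33. The Sox17 bin among these 3 is not called under background scaling (interval 0.917 to 6.52) or median-of-ratios scaling (0.955 to 6.79), which leave the 2 Gata6 bins, and bins shifted by 1 kb gave 1 call. These few member bins reached 20 reads mainly through the differentiated library, so their counts are a description.

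The atRA and EB libraries share the undifferentiated library, so they were also compared directly. Sox7 had 43 reads after atRA against 11 in EBs (3.91-fold, 1.99 to 8.42), and Sox17 had 68 against 29 (2.35-fold, 1.5 to 3.76). Gata4 had 94 against 67 (1.41-fold, 1.02 to 1.95), Foxa2 52 against 36 (1.45-fold, 0.928 to 2.28) and Gata6 92 against 90 (1.02-fold, 0.757 to 1.38). The Sox7, Sox17 and Gata4 windows thus had more H3K4me3 after atRA than in EBs, while the Gata6 window differed by less than counting error. In the strongest bins the ratio of atRA to EBs had an interval above 1 at Gata4, Foxa2, Sox17 and Sox7. The Gata4 and Foxa2 ratios were no lower there than that of Sox17, so higher H3K4me3 after atRA was not limited to the SoxF genes. Of 10 member bins with enough reads, 5 were called higher after atRA and 0 lower, against 5.74% and 2.51% of all tested bins. The 5 were 2 at Sox17 and 1 at each of Gata4, Foxa2 and Sox7. Some of them had enough reads mainly through the atRA library. The Sox7 bin held 21 reads after atRA and 5 in EBs, and the Sox17 bin at -2 kb held 16 and 5. The counts of called bins are therefore a description here as well. As atRA cultures were taken at 4 days and EBs at 10 days, treatment and time cannot be told apart.

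**Figure D2:**
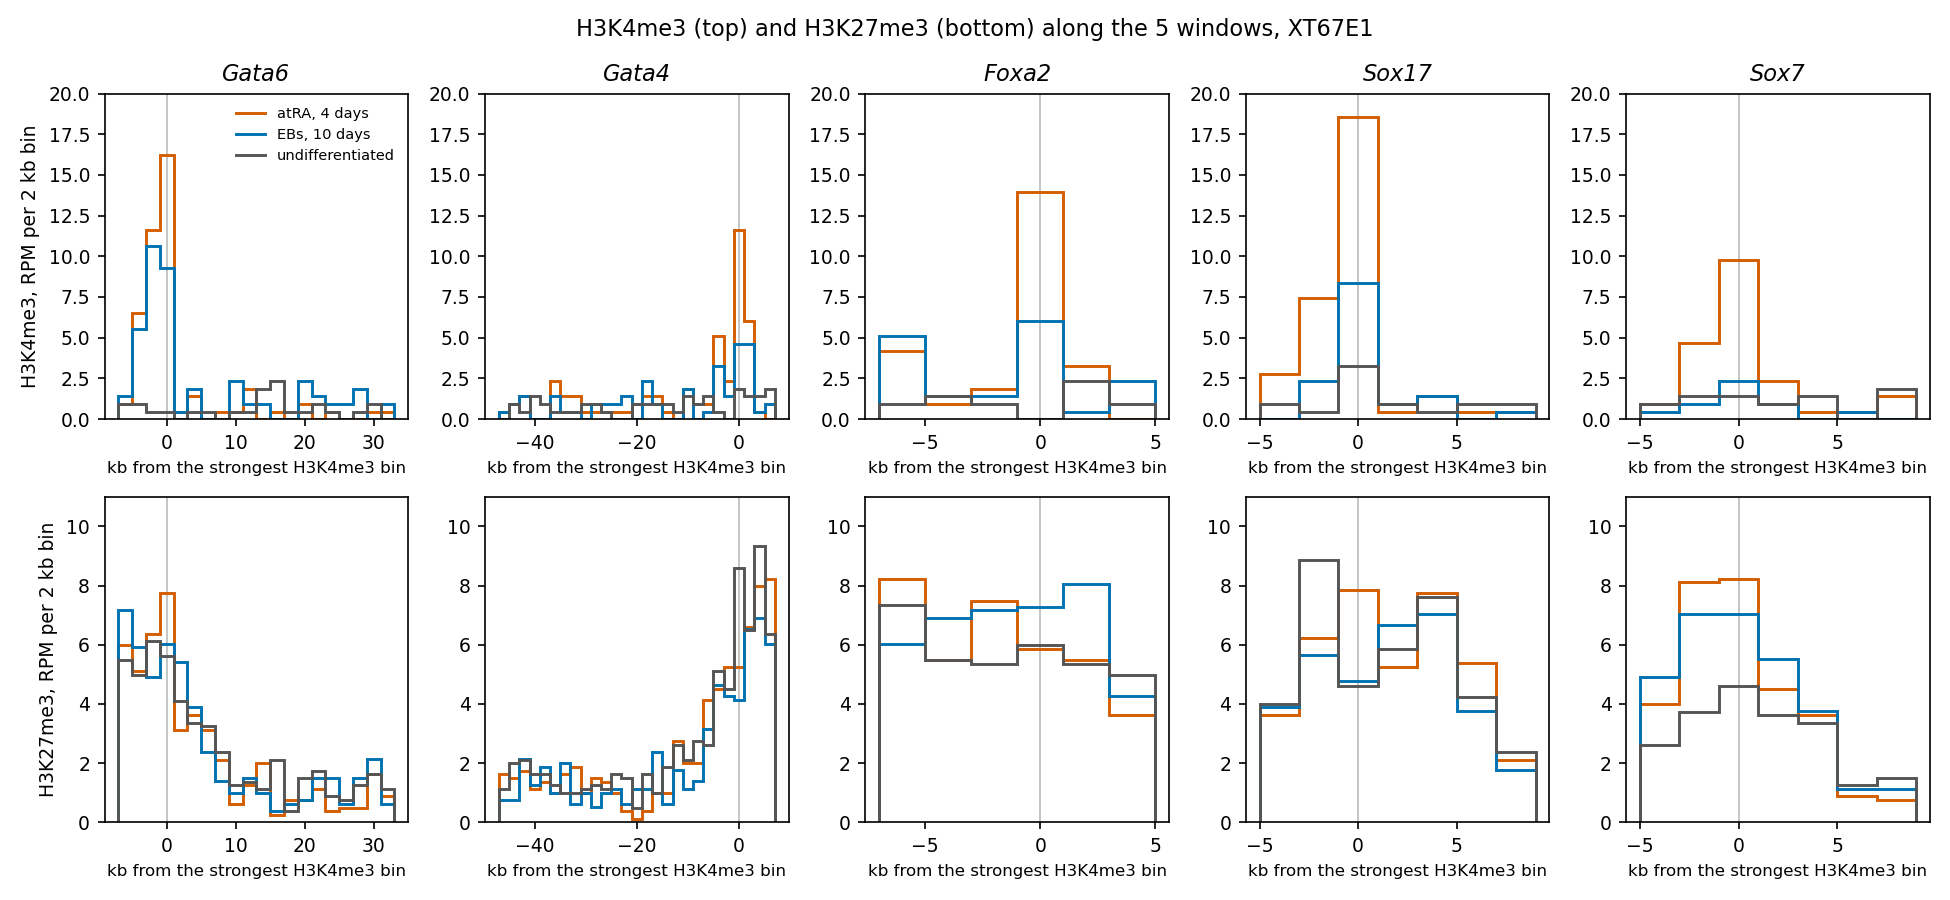
H3K4me3 (top) and H3K27me3 (bottom) in RPM per 2 kb bin along the 5 windows in XT67E1 after atRA, in EBs and in undifferentiated cells, by distance in kb from the strongest H3K4me3 bin. H3K4me3 stands out in a few bins of the differentiated libraries, inside H3K27me3 stretches present in all 3 states.

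H3K27me3 was present on the windows in all 3 states of XT67E1. In XT67E1 the 5 windows summed to 1771 H3K27me3 reads after atRA and 1704 in EBs, against 1750 in undifferentiated cells. The ratio to undifferentiated cells was 1.01 after atRA (0.948 to 1.08) and 0.982 in EBs (0.918 to 1.05). Under background scaling both ratios moved beyond these intervals, upward after atRA and downward in EBs. Of the 67 bins, 29 were rich in H3K27me3 after atRA (1.62% of all autosomal bins) and 29 in EBs (0.921%), against 26 in undifferentiated cells (1.19%). All 6 bins of Foxa2 and 6 of the 7 of Sox17 were rich in each of these libraries. At Gata6 and Gata4 the rich bins lay at 1 end of the window, and the other bins of these longer windows were not rich.

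All 12 bins rich in H3K4me3 after atRA were also rich in H3K27me3 in the atRA library, and so were all 8 in EBs. Over the genome this held for 9.09% of H3K4me3-rich bins after atRA and 7.96% in EBs. As all 6 Foxa2 bins and 6 of the 7 Sox17 bins were rich in H3K27me3 in each state, overlap there was largely set in advance. As no member bin was rich in H3K4me3 in undifferentiated cells, the 26 bins rich in H3K27me3 there all started poor in H3K4me3. Of these 26, 12 became rich in H3K4me3 after atRA and 8 in EBs, against 4.92% and 5.62% of the 12844 autosomal bins in the same starting state. Reads from a bulk library do not show whether both marks lie on the same chromosome copies, and this was not tested.

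Within the 12 bins that were rich in H3K4me3 after atRA, H3K27me3 was 642 reads after atRA against 578 in undifferentiated cells (1.11-fold, 0.992 to 1.25). In the other 55 bins it was 1125 against 1162 (0.969-fold, 0.892 to 1.05). Within the 8 bins rich in H3K4me3 in EBs, it was 363 in EBs against 399 (0.918-fold, 0.794 to 1.06). At Sox7 the 2 rich bins held 131 H3K27me3 reads after atRA against 67, a ratio of 1.96 (1.45 to 2.67), so both marks were higher in the same bins. At Gata4 the 2 bins rich in EBs held 85 against 121 (0.709-fold, 0.530 to 0.943), with H3K27me3 lower.

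By window, H3K27me3 differed most at Sox7 in XT67E1, with 241 reads after atRA and 243 in EBs, against 166 in undifferentiated cells. It was 1.45-fold higher after atRA (1.19 to 1.78) and 1.48-fold higher in EBs (1.21 to 1.81). Gata4 was lower in EBs, with 478 reads against 602 (0.801-fold, 0.709 to 0.905), and had 551 after atRA (0.916-fold, 0.815 to 1.03). For Gata6, Foxa2 and Sox17 the intervals included 1 in both states. Their ratios lay between 0.949 (Gata6) and 1.05 (Foxa2) after atRA, and between 0.895 (Sox17) and 1.15 (Foxa2) in EBs. The highest of these intervals reaches 1.36 (Foxa2 in EBs), and changes within the intervals were not detectable at this depth.

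Of the 51 member bins tested after atRA, 1 was called higher, at Sox7, and 0 lower, against 3.79% and 2.18% of all tested bins. Their median log2 ratio was 0.03, beside 0.08 over all tested bins. Autosomal bins that carry much of the mark stood higher: 10738 bins rich in H3K27me3 in undifferentiated cells of both other lines had a median of 0.31 after atRA, and the 28 member bins of that kind 0.05. In EBs 1 of 51 was called higher and 3 lower, against 2.19% and 4.31%, with a median of -0.03 beside -0.10. The same 10738 rich bins had a median of 0.06 in EBs, and the 28 member bins 0.08. Between atRA and EBs, 1 of 45 was called higher after atRA and 1 lower, against 5.43% and 1.70%. The shares of member bins called in XT67E1 are near those of the genome.

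The H3K27me3 of EBs differed between the lines. In LF2 the 5 windows summed to 916 reads in EBs against 1433 in undifferentiated cells (0.647-fold, 0.595 to 0.704). In E14 they summed to 1569 in EBs against 1555 (1.01-fold, 0.938 to 1.08), close to the XT67E1 ratio. The LF2 windows that were lower were Gata6, with 149 reads in EBs against 331 (0.456-fold, 0.373 to 0.555), Foxa2 with 133 against 234 (0.576-fold, 0.462 to 0.715), Gata4 with 317 against 506 (0.634-fold, 0.550 to 0.731) and Sox17 with 131 against 171 (0.776-fold, 0.613 to 0.980). Sox7 in LF2 had 186 against 191 (0.986-fold, 0.801 to 1.21).

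The mark was also lower elsewhere in the LF2 EB library. Among the 7520 autosomal bins rich in H3K27me3 in undifferentiated cells of both other lines, the median log2 ratio in LF2 was -0.44, with quartiles at -0.83 and -0.10. The 25 member bins of that kind had a median of -0.77. Of 38 member bins tested in LF2, 8 were called lower, 5 at Gata6 and 3 at Gata4, and 0 higher, against 12.8% and 2.00% of all tested bins. The number of LF2 bins rich in H3K27me3 was 27 of 67 in EBs (1.39% of all bins) against 36 in undifferentiated cells (2.44%). Whether a weaker pull-down in this library contributed was not tested.

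In E14, Gata6 was lower in EBs, with 283 reads against 377 (0.749-fold, 0.640 to 0.876). Sox17 had 340 against 274 (1.24-fold, 1.05 to 1.46) and Sox7 had 231 against 161 (1.43-fold, 1.17 to 1.76), both higher. Gata4 had 383 against 425 and Foxa2 332 against 318, with intervals that include 1. Of 33 member bins tested, 2 were called higher, at Sox17 and Sox7, and 1 lower, at Gata6, against 9.48% and 6.18% of all tested bins. The median log2 ratio was 0.07 in the 26 member bins rich in undifferentiated cells of both other lines, and 0.11 in 11251 such autosomal bins. In E14 EBs 30 of 67 bins were rich in H3K27me3 (1.36% of all bins), against 29 in undifferentiated cells (1.17%).

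**Figure D3:**
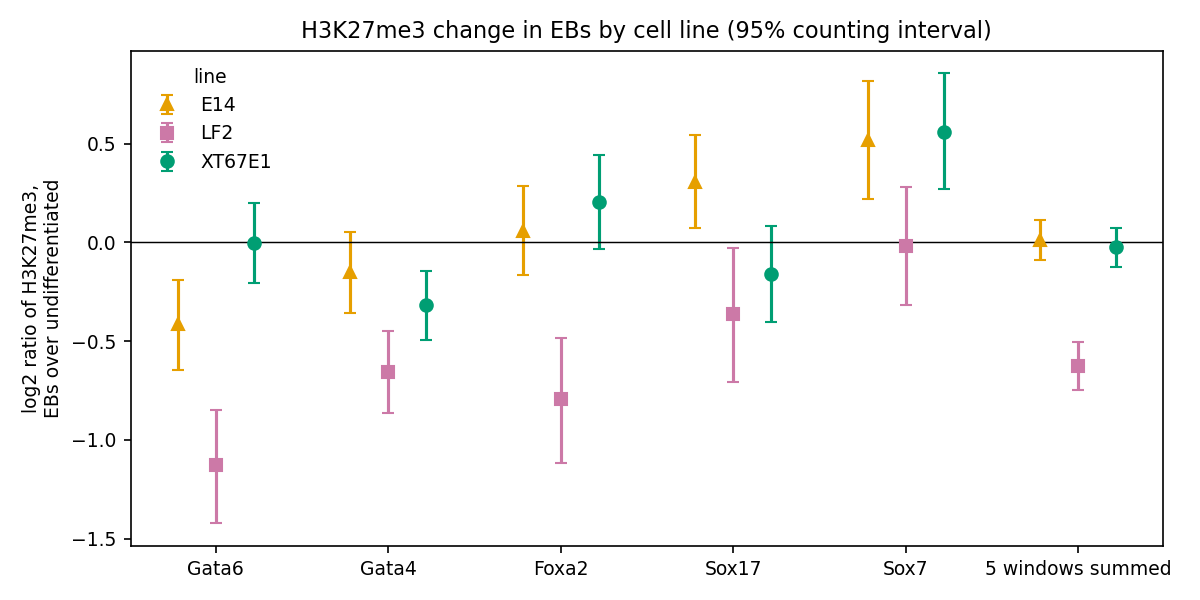
Log2 ratio of H3K27me3 in EBs over undifferentiated cells for each window and for the 5 windows summed, in E14, LF2 and XT67E1, 1 library per state, with exact 95% counting intervals. LF2 is the lowest of the 3 lines at each gene, and its summed ratio is -0.63 against 0.01 in E14 and -0.03 in XT67E1.

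Across the 3 lines, with the line as a block, no window passed limma's test at an adjusted p of 0.05, and 0 of the 5 had an unadjusted p under 0.05. The change in EBs (log2) was -0.52 ± 0.35 (SE) at Gata6 (limma adjusted p = 0.784), with the 3 lines at -0.42 (E14), -1.13 (LF2) and -0.0020 (XT67E1). It was -0.38 ± 0.41 at Gata4 (limma adjusted p = 0.891), which was lower in 3 of 3 lines. The SE is limma's moderated value and not the spread of the lines. The SD of the 3 lines was 0.57 at Gata6 and 0.26 at Gata4. The other changes were -0.18 ± 0.33 at Foxa2, -0.07 ± 0.31 at Sox17 and 0.35 ± 0.29 at Sox7. Without LF2 the changes were -0.21 at Gata6, -0.24 at Gata4, 0.13 at Foxa2, 0.07 at Sox17 and 0.54 at Sox7, so the signs of Foxa2 and Sox17 turn on that line. In the same fit, 0.0932% of the 227434 rows were called higher and 0.0400% lower. The 14 bins of 10 kb with at least 5 kb inside a window had a smallest limma adjusted p of 0.552. A permutation of signs over 3 lines could not give a p below 0.25.

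**Figure D4:**
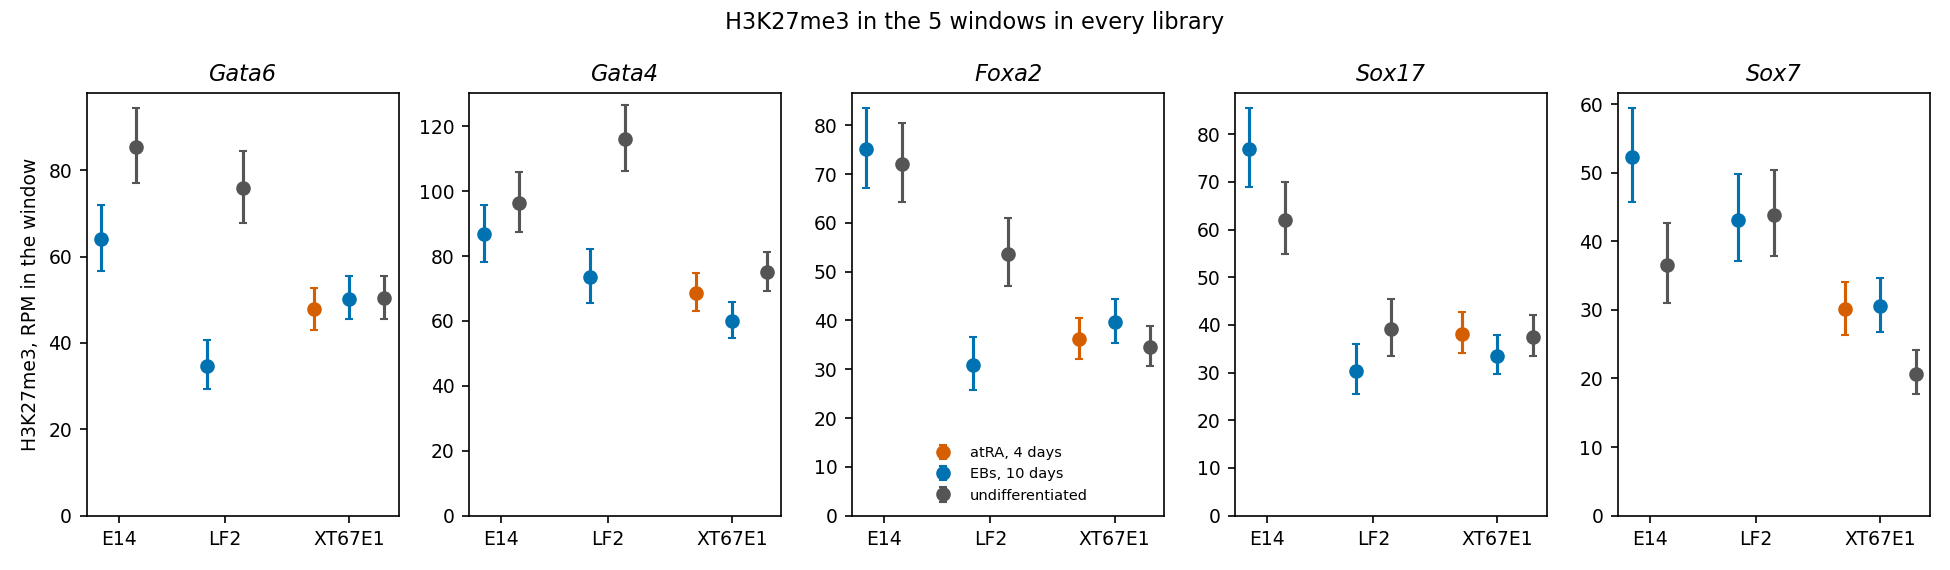
H3K27me3 in RPM per window in every library of E14, LF2 and XT67E1 (EBs and undifferentiated cells, and in XT67E1 also atRA), 1 library per point, with exact 95% Poisson intervals and a scale from 0 for each gene. Gata6 in LF2 has the lowest ratio of EBs to undifferentiated cells, with 34.6 RPM in EBs against 75.9 RPM in undifferentiated cells.

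Undifferentiated lines also differed from each other at the 5 genes. In E14 each window held more H3K27me3 than in XT67E1, from 96.3 against 75.1 RPM at Gata4 (1.28-fold, 1.13 to 1.46) to 72.1 against 34.5 RPM at Foxa2 (2.09-fold, 1.77 to 2.46). In LF2 4 of the 5 windows held more than in XT67E1, from 75.9 against 50.4 RPM at Gata6 (1.51-fold, 1.30 to 1.75) to 43.8 against 20.7 RPM at Sox7 (2.12-fold, 1.71 to 2.62). Sox17 had 39.2 RPM in LF2 against 37.5 in XT67E1 (1.04-fold, 0.860 to 1.26). Of all autosomal bins, 2.44% were rich in H3K27me3 in undifferentiated LF2 cells, against 1.19% in XT67E1 and 1.17% in E14. In E14, 1073 autosomal bins reached 16.4 times the mean bin or more, while in XT67E1 183 reached 10.9 times. E14 thus had more bins far above its mean over the genome than XT67E1. Whether the differences at the windows go beyond those of the whole libraries was not tested. XT67E1 differs from E14 and LF2 in strain and in read number as well as in line, and these cannot be told apart. E14 and LF2 share a strain and a read number. E14 held more H3K27me3 than LF2 at Sox17, with 62.1 against 39.2 RPM (1.59-fold, 1.31 to 1.93), and at Foxa2, with 72.1 against 53.6 RPM (1.34-fold, 1.13 to 1.60). It held less at Gata4, with 96.3 against 116 RPM (0.831-fold, 0.729 to 0.947). For Gata6 (1.13-fold) and Sox7 (0.834-fold) the intervals included 1. With 1 library each, line and library cannot be told apart.

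In undifferentiated E14 cells H3K27me3 was concentrated on the bin that carried H3K4me3 in differentiated XT67E1 cells. At Gata6, chr18:11054001-11056000 held 126 of 377 H3K27me3 reads of the window in E14 (33.4%, exact binomial 28.7 to 38.4), 55 of 331 in LF2 (16.6%, 12.8 to 21.1) and 45 of 404 in XT67E1 (11.1%, 8.24 to 14.6). In E14, 65 autosomal bins held as many reads as this Gata6 bin, or 0.00558% of bins. At Sox17 the share was 31.0% in E14 (25.6 to 36.9), 14% in LF2 (9.20 to 20.2) and 12.3% in XT67E1 (8.81 to 16.5). At Sox7 it was 38.5% in E14 (31.0 to 46.5), 26.2% in LF2 (20.1 to 33.0) and 22.3% in XT67E1 (16.2 to 29.4). Gata4 had no such concentration, with 9.69% in E14, 9.62% in LF2 and 11.7% in XT67E1. Foxa2 had 23.0% in E14, 14.5% in LF2 and 17.3% in XT67E1, and the E14 and XT67E1 intervals overlap. E14 also had more bins far above the mean over the genome than XT67E1, and whether the concentration goes beyond this was not tested.

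**Figure D5:**
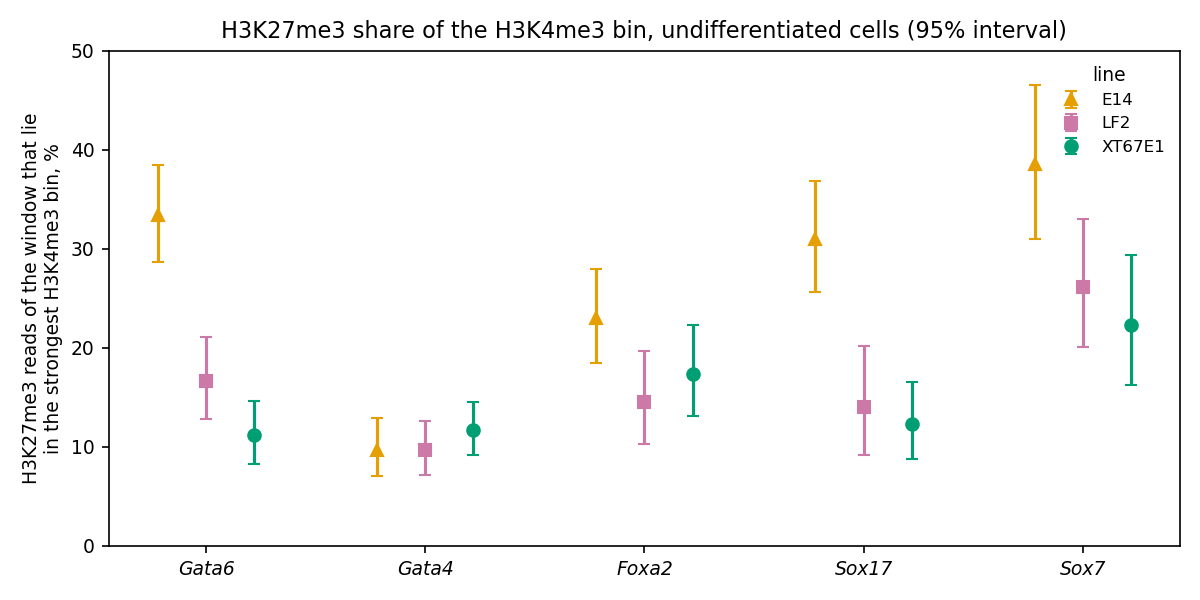
Percent of the H3K27me3 reads in the whole 2 kb bins of a window that lie in its strongest H3K4me3 bin, in undifferentiated E14, LF2 and XT67E1 cells, 1 library per point, with exact 95% binomial intervals. E14 stands above the other lines at Gata6 (33.4%) and Sox17 (31.0%), and Gata4 lies between 9.62% and 11.7% in the 3 lines.

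The level of H3K27me3 in E14 relative to XT67E1, a different measure from these shares, was also compared between kinds of bins over the genome, a comparison chosen after these values were seen. Among bins rich in H3K27me3 in undifferentiated LF2 cells, 911 autosomal bins became H3K4me3-rich in XT67E1 after atRA. Their undifferentiated H3K27me3 had a median log2 ratio of E14 over XT67E1 of 0.65 (quartiles 0.04 and 1.18), beside -0.08 (quartiles -0.66 and 0.47) in 24597 bins that were poor in H3K4me3 in all 3 states. The quartile ranges overlap. The first kind also held more H3K27me3 reads per bin in XT67E1, with 31611 reads in 911 bins beside 652419 in 24597. The 2 kinds were not matched for this level, so H3K4me3 and the level of H3K27me3 cannot be told apart here. In the 5 windows the 12 bins of the first kind had a median of 1.08 and the 24 of the second kind 0.45. H3K4me3 of E14 and LF2 was not analysed here.

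The pattern of each window over 6 log2 ratios to the undifferentiated library of its mark and line was compared with 125312 autosomal bins of 10 kb. Likeness was the root mean square difference of the 6 ratios. The 5 genes were not all alike: Gata6 and Foxa2 were nearest to each other (0.31) and Gata6 and Sox7 farthest apart (1.17). The nearest bin outside was chr7:139550001-139560000 for Gata6 (0.11), chr11:113660001-113670000 for Gata4 (0.07), chr9:112140001-112150000 for Foxa2 (0.13), chr19:57510001-57520000 for Sox17 (0.12) and chr4:4630001-4640000 for Sox7 (0.18). These are the smallest differences among 125312 bins, so they are small by selection. The median bin differed by 0.71 (Gata4) to 1.18 (Gata6). Sox7 differed from Gata6 (1.17) and Foxa2 (0.91) by more than from its median bin (0.87), and from Gata4 (0.74) and Sox17 (0.72) by less. The 6 ratios share 4 undifferentiated libraries, and no gene names were given to these bins.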

How the data were processed

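The authors deposited 1 file of read positions per library, as intervals of 200 bp with no strand and no other value per row. The build is mm9, per the submitters' processing notes. The sources used here do not give the aligner, the filters or the extension. Totals were equal within each set of files, and no interval repeated.

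Interval midpoints were counted per window and in 2 kb bins, and scaled to reads on the 19 autosomes (RPM). Log2 ratios used a pseudocount of 1 read, which understates changes at low counts, and folds and exact conditional binomial intervals used the reads themselves. EBs were tested against undifferentiated cells over 3 lines with limma 3.58.1 (R 4.3.3, log2 RPM, intensity trend, line as block, two-sided, Benjamini-Hochberg). Its rows were the 10 kb bins with at least 60 reads over 6 libraries and the 5 windows. The lines pair the libraries by origin, and deviations from the state means correlated at 0.24 (E14), 0.0844 (LF2) and 0.185 (XT67E1). The fit had 43.4 degrees of freedom, of which 2 came from the lines themselves. The p-values rest on 3 lines with 1 library per state.

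All 5 genes are named in each comparison, and the named bin is the one with most reads of the mark summed over its libraries. Nearest 10 kb bins lay over 100 kb from a window and had at least 100 H3K27me3 and 20 H3K4me3 reads. A bin rich in a mark also needed at least 5 reads. Members and lists were chosen with earlier results of these data known. Other endoderm genes and pluripotency genes that were to be counted at their start sites need an mm9 annotation and were not analysed here, so the state labels were not checked on marker genes. Alternatives were a pseudocount of 5, other scalings, no read minimum, shifted or 2 kb bins, wider windows, limma voom, no block and leaving out each line.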

Additional observations from a re-analysis of the deposited data

Results flagged for a closer look

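The H3K27me3 change of the Sox17 window in EBs went opposite ways in LF2 and E14, with each counting interval on its own side of 0. The log2 ratio of EBs over undifferentiated cells was 0.31 in E14, with an interval of 0.07 to 0.54, whereas LF2 had -0.36 (-0.71 to -0.03). In reads this was 131 in EBs against 171 in undifferentiated LF2 cells, and 340 in EBs against 274 in undifferentiated E14 cells. Each line gave 1 library per state, and the difference between the lines was not tested. The lower LF2 value stands beside a median log2 ratio of -0.44 in LF2 over H3K27me3-rich bins elsewhere.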

How the results depend on the processing

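Of 342 values under alternatives, 307 stayed within their limits, 35 moved and 0 reversed. Changes over the 3 lines were labelled by whether the window was called, so a change of sign in an uncalled window counts as within limits. Some other values could not move, such as 0 rich bins under a higher threshold. The tally is therefore a loose guide. For window ratios, 13 alternatives gave the other sign, in 0 cases for a ratio whose counting interval excluded 0. The Foxa2 and Sox17 changes over 3 lines without LF2 are among the 13 and have no counting interval. Widening the windows by 10 kb lowered the summed H3K4me3 log2 ratio after atRA to 1.00, with 1.5 in the windows as given. Background scaling shifts all log2 ratios by -0.11 (atRA) and -0.16 (EBs) for H3K4me3, and for H3K27me3 by 0.13 (atRA), -0.11 (XT67E1 EBs), -0.23 (LF2), 0.10 (E14) and 0.24 (atRA against EBs). The summed H3K27me3 ratios then became 0.15 after atRA, -0.13 in XT67E1 EBs, -0.86 in LF2 EBs, 0.11 in E14 EBs and 0.28 for atRA against EBs. In XT67E1 the intervals under autosomal scaling were -0.08 to 0.11 after atRA and -0.12 to 0.07 in EBs. The background-scaled values lie outside them, so the near-equal H3K27me3 sums of XT67E1 depend on the scaling.

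Counts of called bins with no read minimum were 10 higher (6 with it) for H3K4me3 after atRA and 6 higher (3 with it) in EBs. For H3K27me3 they were 3 lower (0) after atRA, 1 higher (0) in LF2, 3 lower (1) in E14 and 3 lower (1) for atRA against EBs. Bins shifted by 1 kb gave 1 higher (3) for H3K4me3 in EBs and, for H3K27me3, 2 higher (1) and 1 lower (3) in XT67E1 EBs, 1 higher (2) in E14 and 0 higher (1) for atRA against EBs. Background scaling gave 17 lower (8) in LF2. Either scaling gave 0 higher (1) in XT67E1 EBs and 0 lower (1) for atRA against EBs. At 8 times the mean bin, the rich bins were 7 (H3K4me3, atRA) and 3 (EBs), and for H3K27me3 9 (XT67E1 atRA), 9 (EBs), 5 (undifferentiated), 4 (LF2 EBs) and 20 (LF2 undifferentiated). The cause was not tested.

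With the line as a replicate block, and with no block, 0 windows were called, and leaving out each line gave 0 to 0. The limma rows called ranged from 10 to 445 higher and from 0 to 227 lower over the alternatives, with 212 and 91 in the fit reported.

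H3K4me3 depth limits single bins: 1 read is 0.464 RPM, and the floor of 3 reads is 1.39 RPM, while the two-sided exact interval of a bin without reads ends at 1.71 RPM. Each comparison within a line rests on 1 library per state, and intervals leave out culture and pull-down differences.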
